A study of Homo sapiens with 8 samples.

Results

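The cytosolic ribosomal protein genes of K562 cells were followed across 4 groups of libraries. The members were the genes whose symbol in the deposited transcript lists is RPL or RPS with a number and an optional A, together with RPL36AL, RPL7L1, RPL22L1, RPL26L1, RPL39L, RPS27L, RPLP0, RPLP1, RPLP2 and RPSA. This gave 72 genes of the 23621 in the lists, 46 for the large subunit and 26 for the small subunit, with 113 reference transcripts. Another 9 genes of the same pattern (RPL13A, RPL17, RPL21, RPL32, RPL36A, RPS10, RPS27A, RPS3 and RPS3A) carried no symbol in the lists and were not counted as members.

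K562 is a human erythroleukaemia line. The cells held a doxycycline-inducible transgene for the splicing factor SF3B1, either wild type (WT) or with the K700E substitution, and a culture was left untreated or received doxycycline at 1 ug/ml for 48 h. The groups are K700E_induced, K700E_uninduced, WT_induced and WT_uninduced, with 2 libraries each (replicate 1 and replicate 2). All 8 libraries come from cells that carry a transgene, so neither line is a parental K562 control. Whether each line is 1 clone is not given in the sources used here. Total RNA was sequenced after RNase H depletion of ribosomal RNA. Replicate 1 and replicate 2 libraries carry different run and lane tokens in the names of their files, so the replicate number may mark a sequencing batch. Nothing says that replicates were separate cultures, so p-values measure the spread between these libraries, which may be technical. In bulk RNA, fewer expressing cells and less RNA per cell cannot be told apart.

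Values are FPKM, fragments per kilobase of transcript scaled to the size of the library, summed over the transcripts of a gene, and read depth is not known. For member reference transcripts of at least 100 FPKM, the deposited interval had a median half-width of 4.27% to 4.46% of the value, depending on the library. This covers estimation within a library only. Total SF3B1 level, which does not separate the transgene from the endogenous gene, ranged from 27.3 to 39.5 FPKM. The limma log2 difference of SF3B1 was 0.06 (SE 0.37, adjusted p = 1) for K700E induction and -0.13 (SE 0.37, adjusted p = 1) for WT induction. All 12 erythroid markers were above a mean of 1 FPKM, with sums of 8719 to 18597 FPKM. Markers of other cell types were not all absent: 5 of 7 fibroblast and epithelial markers reached a mean of 1 FPKM, led by KRT8 at 363 FPKM, with sums of 532 to 1445 FPKM. Of 5 T and B cell markers 2 did, led by CD3D at 22.99 FPKM, and of 5 monocyte and macrophage markers 2, led by CD68 at 18.6 FPKM. MS4A1, CD14 and COL3A1 were the 3 markers listed at 0 in every library.

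Each ribosome holds a copy of nearly every one of these proteins, and cells make them at matched rates. Many of their mRNAs begin with a terminal oligopyrimidine (TOP) tract, a C at the first base followed by an unbroken run of C and T, through which growth signals set their translation. A few members have paralogs that replace them in some tissues or act in other steps, and loss of a single copy of several ribosomal protein genes causes Diamond-Blackfan anaemia, a failure of red cell formation.

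The start sites are shown first because the tract is the sequence feature this family is known for, with 3 paralogs beside their parent genes. Each line gives 30 bases on the coding strand, 10 before and 20 from the annotated start, from RefSeq on GRCh38.p14. RPL10, RPL13, RPS19 and RPL26L1 have other annotated starts that are not shown. None of those holds a run of 5 bases counted from its first base. Capitals mark the longest run of C and T that begins with C within 10 bases of the start, where it reaches 5 bases.
RPL10, chrX:154398367-154398396, plus strand: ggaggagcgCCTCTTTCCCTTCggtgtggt
RPL13, chr16:89560672-89560701, plus strand: gggccgCTTCCTTTCCgctcggctgttttc
RPS19, chr19:41860245-41860274, plus strand: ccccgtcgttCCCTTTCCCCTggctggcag
RPL22, chr1:6199576-6199605, minus strand: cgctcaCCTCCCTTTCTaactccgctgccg
RPL22L1, chr3:170870176-170870205, minus strand: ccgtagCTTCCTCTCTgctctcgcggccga
RPL26, chr17:8383174-8383203, minus strand: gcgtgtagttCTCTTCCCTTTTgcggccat
RPL26L1, chr5:172958719-172958748, plus strand: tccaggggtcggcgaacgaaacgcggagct
RPS27, chr1:153990752-153990781, plus strand: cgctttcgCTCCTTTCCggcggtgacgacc
RPS27L, chr15:63157458-63157487, minus strand: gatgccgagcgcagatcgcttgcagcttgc

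The table of promoters held 69 starts for 57 members. A C at the start with an unbroken run of 5 or more C and T, counted from that C, was present at 40 of the 69, or 58.0%. The same held at 4.07% of all 35116 promoters in the table. Such a run may also extend upstream of the start. Allowing the run to begin within 10 bases raised these shares to 79.7% and 33.5%. Among members other than the paralogs, 39 of 63 starts held the run at the first base, compared with 1 of 6 starts of 5 paralogs, that of RPL22L1. Of non-ribosomal genes known for TOP mRNAs, 11 of 15 starts held it, and of ribosome assembly factors 2 of 39. Only the coding strand was searched. A run is a description of these letters and does not show that the start is used in K562 cells.

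The members were among the most abundant mRNAs of the libraries. Their mean level over the 8 libraries had a median of 901 FPKM, and 67 of 72 had a mean over 100 FPKM and 32 a mean over 1000 FPKM. The highest was RPS2 of the small subunit, at a mean of 3565 FPKM with a range of 2771 to 4062. RPS18, part of the head of the small subunit, followed at a mean of 1992 FPKM, and RPS14, whose loss marks the 5q- syndrome, at 1882 FPKM. In the large subunit RPLP1 led with a mean of 3180 FPKM and a range of 1857 to 3918. RPL41, which encodes a peptide of very few residues, came next with a mean of 2521 FPKM. RPLP1, RPLP2 (2270 FPKM) and RPLP0 (2110.5 FPKM) form the stalk that recruits translation factors, and all 3 were among the highest large-subunit genes. RPSA, a small-subunit protein also known as the laminin receptor, ran from 772 to 1251 FPKM.

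The lowest small-subunit members were RPS27L at a mean of 23.6 FPKM, RPS23 at 151 FPKM and RPS26 at 233 FPKM, with a range of 153 to 304. RPS23 lies at the decoding centre, and its 8 libraries ran only from 131 to 173 FPKM. The lowest large-subunit members were paralogs: RPL22L1, RPL39L and RPL26L1. RPL22L1 was also the single member that did not reach a mean of 1 FPKM, so 71 of the 72 entered the tests. Levels of most genes were stable: in 50 of 72 the highest library was within 2-fold of the lowest, and the median coefficient of variation over the 8 libraries was 17.8%.

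**Figure D1:**
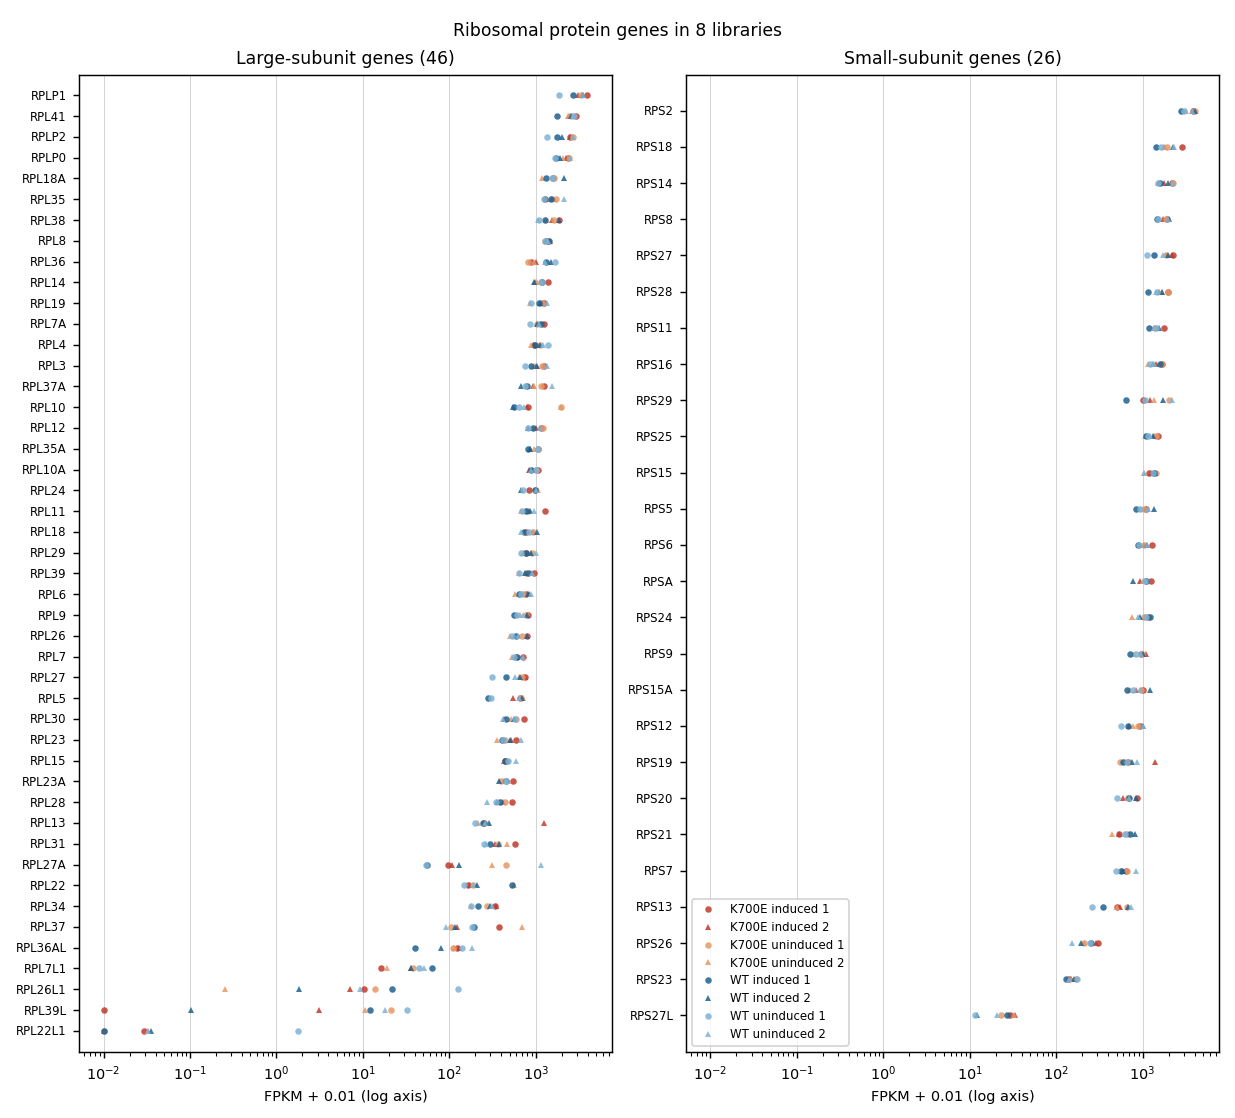
FPKM of each ribosomal protein gene in the 8 libraries, on a log axis with 0.01 added, large subunit left and small subunit right, with colours for groups, circles for replicate 1 and triangles for replicate 2. Most genes form tight columns, with 67 of 72 at a mean over 100 FPKM, while RPL10, RPL13, RPL22, RPL27A, RPL37 and RPS19 have libraries far to the right of the rest.

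Summed over the 72 genes, the libraries held 77737 and 70479 FPKM in K700E_induced, 75463 and 67108 in K700E_uninduced, 60201 and 72381 in WT_induced, and 59688 and 75833 in WT_uninduced. The group means were 74108 ± 5132, 71285 ± 5908, 66291 ± 8612 and 67760 ± 11416 FPKM (SD, n = 2), and the ranges of the 4 groups all overlapped. The WT libraries of replicate 1 were the lowest of the 8. Within replicate 1 the K700E sum was 1.29 times the WT sum in induced cells and 1.26 times in uninduced cells. Within replicate 2 the ratios were 0.974 and 0.885. The genes behaved likewise: in replicate 1, 59 of 72 were higher in K700E in induced cells and 49 of 72 in uninduced cells, and in replicate 2 these counts were 34 and 24. Of all 11393 genes tested, 47.5% to 49.6% were higher in K700E in these 4 comparisons. The line with the higher family level therefore differed between the replicate numbers, and with it between the file tokens.

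**Figure D2:**
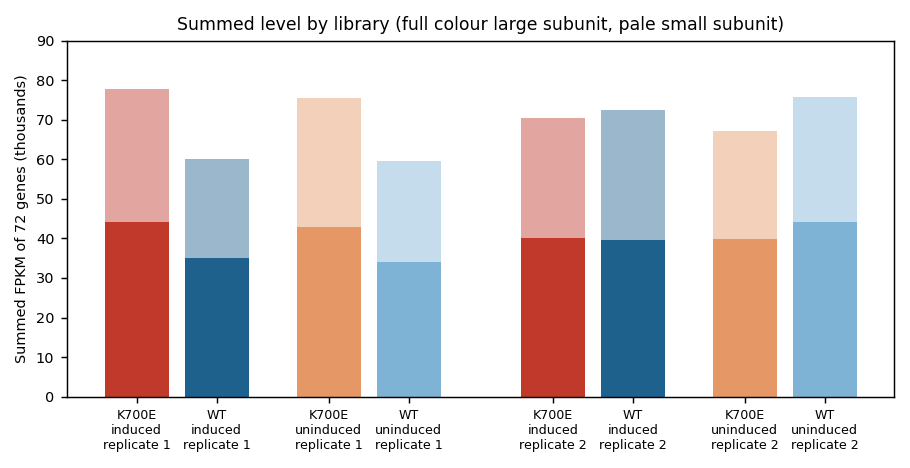
Summed FPKM of the 72 genes per library (axis in units of 1000 FPKM), with the large subunit in full colour and the small subunit in pale colour, arranged by replicate number. The 2 WT libraries of replicate 1 are the lowest, at 60201 and 59688 FPKM, and the lines are near each other or in the opposite order in replicate 2.

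The balance of the subunits was similar in all groups. Large-subunit genes held between 54.8% and 59.5% of the summed FPKM over the 8 libraries. The group means were 56.9% ± 0.219 in K700E_induced, 58.2% ± 1.80 in K700E_uninduced, 56.6% ± 2.55 in WT_induced and 57.6% ± 0.826 in WT_uninduced (SD, n = 2). The ranges of the 4 groups overlapped here too, although the 2 K700E_induced libraries were closer to each other than those of the other groups.

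Of the 72 genes, 24 had more than 1 reference transcript. In most, a single reference form led in all libraries, and RPL15, RPL18 and RPL38 were the exceptions. RPL18, a large-subunit protein gene linked to Diamond-Blackfan anaemia, has an 887 nt form that held 100% of the reference FPKM in replicate 1 of K700E_induced, K700E_uninduced and WT_induced. It held 71.1% in replicate 1 of WT_uninduced and from 40.6% to 49.4% in 3 libraries of replicate 2, where the 800 nt form held the rest. In K700E_uninduced replicate 2 the forms were level. The 800 nt form was thus present in every library of replicate 2 and in 1 of 4 of replicate 1. RPL11, which with RPL5 and the 5S rRNA can bind MDM2, has forms of 634 nt and 631 nt. The 631 nt form was listed at 0 in all 4 K700E libraries and in WT_uninduced replicate 2, and held 39.8% and 25.6% in WT_induced and 12.6% in WT_uninduced replicate 1. The 3 nt between these forms leave few reads to tell them apart, and the shares of single reference forms were not tested. RPL28 used its 896 nt form for 65.5% to 81.2% of the reference FPKM in every library. RPS24, a Diamond-Blackfan anaemia gene, used its 633 nt form for 65.8% to 100%.

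Besides reference transcripts, each library's list holds transcripts assembled from that library's reads. Spliced forms of 300 nt or more were found for 23 of the 72 members, 35 forms in all. For 17 of these genes they appeared in 1 library only. Both libraries of a group held a form in 4 cases: RPL10 and RPL27A in K700E_uninduced, RPL37 in WT_uninduced and RPS21 in WT_induced. For RPS21 this rests on the 300 nt limit. K700E_induced replicate 1 held a form of 431 nt, and replicate 2 listed one of 287 nt at 282 FPKM, which was not counted. RPS21 forms of any length were thus listed in every induced library and in no uninduced one. How many of all genes do so was not counted. Of the 35 forms, 19 used reference introns alone, 25 lacked the first intron of the leading reference form, and 24 were shorter than it. Among 15 distinct new introns, 9 had a new donor, 4 a new acceptor and 2 new sites at both ends. SF3B1 mutants are known for acceptors a short way upstream of the usual site, and none of the 4 new acceptors lay 10 to 30 nt upstream of the reference acceptor. Each of the 4 was within 10 nt of it, on the downstream side, and came from an uninduced library. The K700E_induced libraries gave no new acceptor in these genes, so the 4 do not describe acceptors in cells induced for K700E. Only 2 of the 15 new introns were found in K700E_induced libraries alone, in RPL37 and RPS19.

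Assembled forms held between 0.329% and 5.32% of the members' summed FPKM in a library. A single form held from 10.5% of its gene, in RPL7L1, to 93.6%, in RPL37. The highest mean shares over the 8 libraries were 31.5% for RPL27A, 30.1% for RPL37, 20.6% for RPL10, 19.1% for RPL7L1 and 19.0% for RPL22. In the 34 pairs of a gene and a library with a form, the reference FPKM was below that of every library without one in 17 pairs and above them all in 1. The summed FPKM was above every library without a form in 19 pairs and below them all in 2. The median ratio to the libraries without a form was 0.719 for the reference FPKM and 1.27 for the sum. FPKM divides by length, so a short form turns the same fragments into more FPKM. When each form's FPKM was multiplied by its length in kilobases, to approximate the fragments behind it (the fragment level below), the median ratio was 1.13 and the value was above every library without a form in 10 pairs. The median coefficient of variation of these 23 genes was 25.5% in FPKM and 19.0% in fragment level, compared with 15.5% for the 49 genes with reference forms only.

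**Figure D3:**
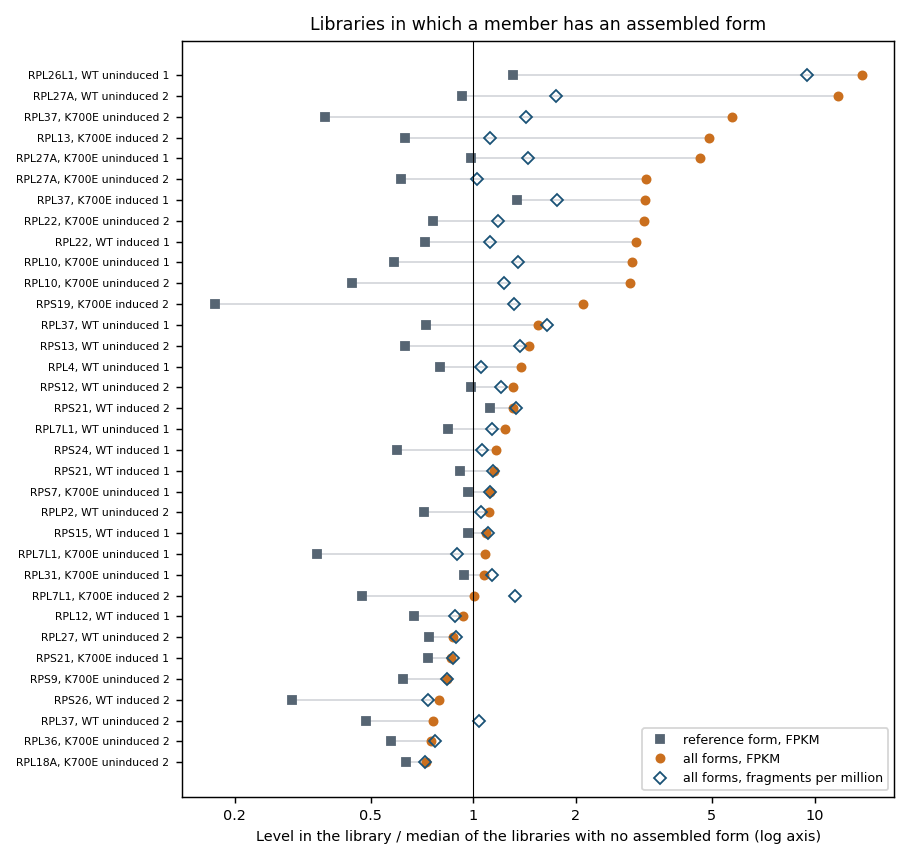
Level in each library with an assembled form, divided by the median of the libraries of that gene without such a form, on a log axis, for the reference form alone, all forms in FPKM, and all forms as fragment level. The median ratios are 0.719, 1.27 and 1.13, and for RPL13, RPL22 and RPL10 the fragment ratios lie between 1.12 and 1.35 where the FPKM ratios lie between 2.88 and 4.91.

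RPL10 is a large-subunit protein that joins late in assembly, close to the site of peptide bond formation, and it gave the smallest p-values of the family. Its gene lies on hg19 chrX:153626571-153630680, plus strand. The first sequence listed above is from the annotated start of RPL10 with the tract, which is not its only annotated start. The summed level was 815 and 798 FPKM in K700E_induced, 1987 and 1963 in K700E_uninduced, 566 and 543 in WT_induced, and 638 and 725 in WT_uninduced. The group means were 806 ± 11.9, 1975 ± 17.5, 554 ± 16.4 and 682 ± 61.3 FPKM (SD, n = 2). No library of K700E_uninduced overlapped any other group, and the K700E_induced libraries lay above all 4 WT libraries.

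An assembled form was listed in both K700E_uninduced libraries and in no other. This form measured 757 nt in replicate 1 and 748 nt in replicate 2, with 1587 and 1661 FPKM. It held 79.9% and 84.6% of the gene, while the reference form read 400 and 302 FPKM, compared with 543 to 815 FPKM in the other 6 libraries. The reference transcript has 7 exons and 2318 nt, of which the last exon takes 1638 nt. The assembled form had all reference introns from the second to the sixth. It began inside the first intron, 63 and 60 nt before the second exon, and stopped 1459 and 1465 nt before the reference end. The 2 other reference transcripts of the gene, with 6 exons each, were listed at 0 in every library.

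In fragment level, RPL10 read 1888 and 1849 in K700E_induced, 2129 and 1942 in K700E_uninduced, 1312 and 1258 in WT_induced, and 1480 and 1681 in WT_uninduced. On this scale the assembled form held 56.4% and 64.0% in the 2 K700E_uninduced libraries. The 4 K700E libraries still lay above the 4 WT libraries, and the values of K700E_uninduced were 1.35 and 1.23 times the median of the other 6.

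**Figure D4:**
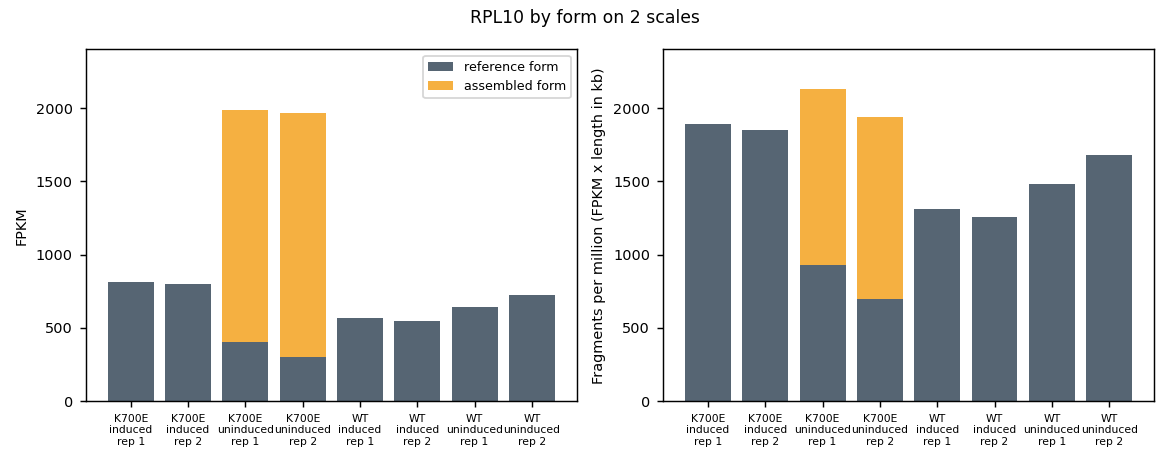
RPL10 in each library by form, in FPKM (left) and in fragment level (right), as stacked bars from 0. In FPKM the 2 K700E_uninduced libraries reach 1987 and 1963 through an assembled form that no other library holds, and in fragment level they reach 2129 and 1942 beside 1888 and 1849 in K700E_induced.

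The limma log2 difference of RPL10 was -1.29 (SE 0.20, adjusted p = 0.759) for K700E induction and 1.52 (SE 0.20, adjusted p = 0.214) between the uninduced lines. Between the induced lines it was 0.53 (SE 0.20, adjusted p = 0.923), and the interaction was -0.99 (SE 0.28, adjusted p = 0.999). None passed the threshold of 0.05 after adjustment over all 11393 genes, although the unadjusted limma p was 0.0002 and 6.16e-05 in the first pair. With reference transcripts alone the signs turned, to 1.22 for K700E induction, -0.97 for the uninduced lines and 1.48 for the interaction. In fragment level the differences were -0.12 (SE 0.18) for K700E induction, 0.35 for the uninduced lines and 0.17 for the interaction. The direction of RPL10 in K700E cells therefore depended on how its forms were summed, apart from the induced lines, where no assembled form was listed and the difference was 0.53 on both scales. The genes whose pattern over the 8 libraries was most like that of RPL10 were RPLP2, RPS28 and RPL24, with Pearson r of 0.60, 0.57 and 0.56. These values describe 8 libraries, and all genes of a library share its depth and scaling factor.

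Other members were high in FPKM in some or all of their libraries with an assembled form, and differed in whether their fragment level was high there as well. RPL13, a large-subunit protein, read 1236.5 FPKM in K700E_induced replicate 2 and between 200.1 and 289 FPKM in the other 7 libraries. Its leading reference form has 4499 nt, and the assembled form of 513 nt held 87.1% of the gene in that library. In fragment level RPL13 read 1268 there, inside the range of 900.4 to 1302 of the other libraries. RPS19, the gene most often mutated in Diamond-Blackfan anaemia, read 1377 FPKM in K700E_induced replicate 2 and 554 to 869 FPKM elsewhere. Its assembled form of 503 nt, with a new donor 205 nt downstream of the reference donor, held 91.7% of the gene and the reference form 115 FPKM. In fragment level RPS19 read 732 in that library and up to 737 in the others.

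RPL22, which also binds viral and cellular RNA hairpins, read 565 FPKM in K700E_uninduced replicate 2 and 535 FPKM in WT_induced replicate 1. The other 6 libraries ran from 147 to 211 FPKM, and both high libraries held a form of 365 or 370 nt against a reference of 2085 nt. In fragment level these libraries read 440.1 and 419, inside the range of 307 to 440.3 of the others. RPL27A, on hg19 chr11, was high in 3 libraries with assembled forms, at 451 and 314 FPKM in K700E_uninduced and 1147 FPKM in WT_uninduced replicate 2, and ran from 53.6 to 131 FPKM in the other 5. Its fragment level was 688 and 489 in K700E_uninduced and 835 in WT_uninduced replicate 2, compared with 261 to 638, so 2 of the 3 libraries stayed above all those without a form. RPL37 reached 688 FPKM in K700E_uninduced replicate 2 and 381 FPKM in K700E_induced replicate 1, while its 4 libraries without a form ran from 105 to 191 FPKM. Both WT_uninduced libraries also held a form and were not high. They read 185 FPKM in replicate 1, inside that range, and 91.4 FPKM in replicate 2, below it. In fragment level RPL37 read 331 in K700E_induced replicate 1 and 309.9 in WT_uninduced replicate 1, above the 165 to 300.3 of the libraries without a form, and 269 in K700E_uninduced replicate 2, inside that range. Leading reference forms over 2000 nt are rare in this family, with 6 of 72 genes at a median length of 704 nt, and RPL10, RPL13, RPL22 and RPL27A are 4 of those 6.

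The paralogs were expressed far below their parent genes, with a single exception. RPL36AL, a near-identical copy of RPL36A, had a mean of 115 FPKM, and its level was 16.6% to 74.4% of RPL36A, with a median of 43.0%. RPL7L1, a relative of RPL7 with a role in ribosome assembly, reached a median of 6.28% of its parent. RPL39L, best known from testis, had a median of 1.56% of RPL39, a protein of the exit tunnel. RPL26L1 stood at a median of 1.397% of RPL26, and RPS27L, a p53 target, at 1.27% of RPS27. RPL22L1 was listed at 0 in 3 libraries and at most at 1.79 FPKM, in WT_uninduced replicate 1. The copies RPL3L and RPL10L, which lie outside the rule, were listed at 0 in all libraries and in all but 2. How the authors divided reads between near-identical copies is not given in the sources used here, so levels of RPL36AL and RPL36A are uncertain.

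RPL36AL read 125 and 129 FPKM in K700E_induced, 110.4 and 112 in K700E_uninduced, 39.8 and 79.8 in WT_induced, and 141 and 183 in WT_uninduced. Both WT_induced libraries were below all the others. The share of all genes that set 1 group apart in this way was not counted, so this is a description only. RPL39L read 0 and 3.13 FPKM in K700E_induced, 21.2 and 10.6 in K700E_uninduced, 12.2 and 0.0934 in WT_induced, and 32.1 and 18.1 in WT_uninduced. The induced libraries were low in both lines, with WT_induced replicate 1 above K700E_uninduced replicate 2. RPL26L1 read 127 FPKM in WT_uninduced replicate 1, where an assembled form held 90.5% of it, and between 0.245 and 21.98 FPKM in the other 7 libraries. In fragment level that library stayed apart, at 62.1 beside at most 15.6.

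Induction of SF3B1-K700E for 48 h gave no member past the threshold: limma called 0 of 71 members for K700E induction at an adjusted p under 0.05, compared with 0.00878% of all genes tested. At an unadjusted p under 0.05 there were 2 members, RPL10 and RPL39L, or 2.82%, beside 4.69% of all genes. The median member difference was 0.10 on the log2 scale, with 48 above 0 and 23 below, and that of all genes was -0.01. Without K700E_induced replicate 1 the member median was -0.0147, and without replicate 2 it was 0.19, so 1 library turned its direction. The median SE of a member was 0.27, so a difference the size of the median was not detectable for a single gene. The smallest p-values above 0 belonged to RPL13 (1.26, SE 0.61), RPS19 (0.72, SE 0.35) and RPL34 (0.64, SE 0.34), and those below 0 to RPL10, RPL39L (-3.52, SE 1.48) and RPL27A (-1.87, SE 1.16). With reference transcripts alone 3 of these turned, to -0.21 for RPL13, -1.07 for RPS19 and 0.43 for RPL27A, and in fragment level RPL13 stood at 0.20 and RPL27A at -0.21. Without K700E_induced replicate 2 the RPL13 difference was 0.13 and that of RPS19 0.21. RPL39L, listed at 0 in a library, ranged from -4.73 to -2.98 with the pseudocount and from -4.95 to -2.09 on leaving out a library. Of the other cell type markers tested, all 5 fibroblast and epithelial ones and both monocyte ones were below 0, with medians of -0.77 and -1.72. Of the 2 T and B cell markers tested, 1 was above 0, at 0.38, and CD3D was below, at -2.41 (limma adjusted p = 0.978). The fibroblast and epithelial sums were 655 and 732 FPKM in K700E_induced and 1143 and 1445 FPKM in K700E_uninduced, and the monocyte sums 10.8 and 12.3 FPKM against 37.3 and 42.2 FPKM. Their part in the members' values was not tested.

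Induction of wild-type SF3B1 likewise called 0 of 71 members, with 0.00878% of all genes called. RPL36AL alone had an unadjusted p under 0.05, or 1.41% of members beside 4.29% of all genes. Its log2 difference was -1.50 (SE 0.36, limma adjusted p = 0.997). The median member difference was -0.01, with 33 members above 0 and 38 below, and ranged from -0.17 to 0.10 on leaving out a library. The next members by p were RPL38 (0.51, SE 0.25), RPL22 (1.00, SE 0.58) and RPS20 (0.37, SE 0.27) above 0, and RPL39L (-3.17, SE 1.48) and RPL37A (-0.57, SE 0.34) below 0. With reference transcripts alone RPL22 stood at 0.0131. Leaving out WT_induced replicate 2 gave RPL39L -0.95 and WT_induced replicate 1 gave -5.38. RPL37A was -0.0820 without WT_uninduced replicate 2 and -1.06 without replicate 1. Leaving out WT_induced replicate 1 changed RPL36AL to -1.01 and WT_induced replicate 2 to -1.98.

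Between the induced lines 0 of 71 members were called, with 0.0263% of all genes called, and 4.23% of members had an unadjusted p under 0.05 beside 5.23% of all genes. These were RPL36AL (1.16, SE 0.36), RPL10 and RPL36 (-0.59, SE 0.24). The median member difference was 0.18, with 55 above 0 and 16 below, and that of all genes was 0. On leaving out a library it ranged from 0.0451 to 0.26, lowest without K700E_induced replicate 1. Within replicate 1 the median was 0.37, and within replicate 2 it was -0.02. RPL13 (1.06, SE 0.61) was next by p above 0, and RPS21 (-0.52, SE 0.24) and RPL7L1 (-0.95, SE 0.53) below 0. RPL13 turned to -0.44 with reference transcripts alone and to -0.0771 without K700E_induced replicate 2. RPL36AL was 0.67 without WT_induced replicate 1, RPL7L1 -0.41 without K700E_induced replicate 1 and RPS21 -0.21 with assembled transcripts of any length. In the same comparison all 12 erythroid markers were above 0, with a median of 0.49, and both monocyte markers tested were below 0, with a median of -1.83 and LYZ at -1.75 (limma adjusted p = 0.800). The erythroid sums were 10563 and 16543 FPKM in K700E_induced and 8719 and 10222 FPKM in WT_induced, and the monocyte sums 10.8 and 12.3 FPKM against 35.5 and 54.1 FPKM. The part of these markers in the members' shift was not tested. Between the uninduced lines 0 members and 0% of all genes were called, and 2.82% of members beside 4.64% of all genes had an unadjusted p under 0.05, namely RPL10 and RPL36. The median member difference was 0.02, with 0.23 within replicate 1 and -0.21 within replicate 2, and ranged from -0.12 to 0.15 on leaving out a library. RPL27 (0.65, SE 0.32) and RPL31 (0.65, SE 0.31) were next above 0, and RPL26L1 (-3.45, SE 1.71) and RPL4 (-0.39, SE 0.21) below 0. RPL26L1 was -1.33 without K700E_uninduced replicate 2 and -5.56 without replicate 1, and RPL4 was 0.00799 with reference transcripts alone. RPL27 was 0.23 without WT_uninduced replicate 1, and RPL31 0.43 without K700E_uninduced replicate 2. Of the markers, 8 of 12 erythroid and 4 of 5 fibroblast and epithelial ones tested were above 0, with medians of 0.37 and 0.93.

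RPL36, a small protein of the large subunit on hg19 chr19:5690272-5691678, plus strand, differed between lines in the same direction in both states. It read 885 and 999 FPKM in K700E_induced, 822 and 959 in K700E_uninduced, 1311 and 1524 in WT_induced, and 1694 and 1272 in WT_uninduced. Every K700E library was below every WT library. The limma log2 difference was -0.59 between the induced lines (adjusted p = 0.949) and -0.74 (SE 0.24, adjusted p = 0.971) between the uninduced lines. RPL36 was the 1 of 71 members for which all K700E libraries were lower than all WT libraries in scaled FPKM, or 1.41%, and 1.89% of all genes did the same. The opposite held for RPL10 and RPL27, 2.82% of members beside 1.8% of all genes. RPL27, a Diamond-Blackfan anaemia gene, read 763, 748, 695 and 648 FPKM in the K700E libraries and 452, 654, 314 and 570.5 in the WT libraries, so its separation rests on the scaling. No member separated the 4 induced from the 4 uninduced libraries, which 1.24% of all genes did upwards and 1.32% downwards.

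The difference of the 2 inductions, tested as an interaction, called 0 of 71 members and 0.0176% of all genes. At an unadjusted p under 0.05 there were RPL10, RPL36AL (1.69, SE 0.50) and RPL22 (-1.93, SE 0.83), 4.23% of members beside 4.21% of all genes. The median member interaction was 0.11, with 40 above 0 and 31 below. RPS19 (0.90, SE 0.49) and RPL23 (0.71, SE 0.40) were next above 0, and RPS21 (-0.28, SE 0.33) below 0. With reference transcripts alone RPS19 turned to -0.92 and RPL22 to 0.0846, and with assembled transcripts of any length RPS21 turned to 0.0253. On leaving out a library the member median ranged from 0.0142 to 0.24, and RPL22 from -2.77 to -1.10. The 4 pairwise comparisons share libraries, so their values are not independent of each other.

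**Figure D5:**
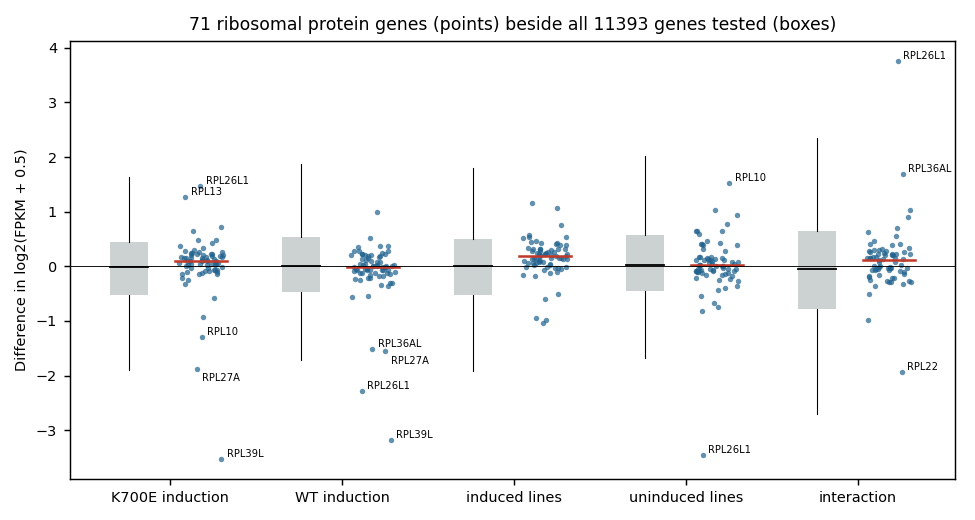
Log2 differences of the 71 tested ribosomal protein genes (points, red line at their median) in the 5 comparisons, beside all genes tested (boxes from the first to the third quartile with the median, whiskers from the 5th to the 95th percentile). The medians of the members lie between -0.01 and 0.18, and RPL10, RPL26L1 and RPL39L are among the few points far from 0.

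The share of assembled forms could be tested for 13 members, those in which they held 5% to 95% of the gene on average, among 6177 genes. No member was called in any comparison, and 0% of all genes were called in each of the 5. At an unadjusted limma p under 0.05 there were 2 members for K700E induction (15.4%, beside 4.23% of all genes), RPL10 and RPL27A. For WT induction and for the induced lines there were 0 members, beside 4.89% and 4.82% of all genes. For the uninduced lines and for the interaction the 1 member was RPL10, or 7.69%, beside 4.32% and 3.89% of all genes. RPL10 and RPL27A passed the 5% filter only through uninduced libraries, in RPL10 those of K700E_uninduced. The filter thus drew on the values that were compared, so these percentages of members are not evidence of a difference. Assembled RPL10 is listed at 0 in both K700E_induced libraries, so the size of its log2 ratio is set by the pseudocount and is not a bound. For K700E induction it was -12.87 with 0.5 (limma adjusted p = 0.932), -11.87 with 1 and -15.20 with 0.1.

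The members that are Diamond-Blackfan anaemia genes, with RPS14, numbered 18. Of these 12 were above 0 and 6 below for K700E induction, with a median of 0.10, and 14 above and 4 below between the induced lines, with a median of 0.17. None had an unadjusted p under 0.05 in any of the 5 comparisons, and the smallest p for K700E induction was 0.0739, for RPS19. Genes of other TOP mRNAs, such as the elongation factor EEF1A1, gave medians near those of the members. For K700E induction their median was 0.12 over 20 genes and between the induced lines 0.18. Of 41 ribosome assembly factors, 25 were above 0 for K700E induction with a median of 0.11, and none had an unadjusted p under 0.05. Between the induced lines 18 were above 0 and 23 below, with a median of -0.11. There 3 of the 41 had an unadjusted limma p under 0.05, as did 5.23% of all genes, with POLR1A the smallest (-1.53, limma adjusted p = 0.905). NMD3, the export adaptor of the large subunit, had the smallest p of this list for WT induction (log2 difference 1.05), the uninduced lines (1.61) and the interaction (-1.76). Its limma adjusted p-values were 0.997, 0.971 and 0.999. No listed gene of these 3 sets was called.

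Other transcripts of the same loci were listed as follows. Of 42 snoRNA genes annotated in introns of 21 members, 5 were above 0, each in 1 library. The other 37 were listed at 0, and since they include snoRNAs that most cells use, these zeros cannot be read as low expression. Unspliced assembled transcripts inside member introns numbered 8 to 22 per library, and none touched a reference exon. Of 27 ribosomal protein pseudogenes with a symbol in the lists, 12 had a mean of 1 FPKM or more, and their summed level was 210 and 277 FPKM in K700E_induced and 120 to 205 FPKM in the other 6 libraries. The difference in the sums was not tested. By scaled FPKM 13 pseudogenes entered the single-gene tests. For K700E induction 7 were above 0 and 6 below, with a median of 0.18. Between the induced lines 6 were above 0 and 7 below, with a median of -0.37. RPSAP58, a copy of RPSA, was the highest at a mean of 92.5 FPKM with a range of 61.8 to 121.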

How the data were processed

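The authors deposited FPKM for each transcript, with an interval. The submitters' processing notes name hg19 as the build and CASAVA, TopHat and Cufflinks as tools. The sources used here do not give versions, settings or how reads that match several genes were treated. The members and gene lists were chosen with earlier results of these data known.

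FPKM was summed per gene over reference transcripts on the primary chromosomes and assembled spliced transcripts of 300 nt or more, which went to the gene sharing most of their introns. Libraries were scaled by median ratios over 7589 genes at 1 FPKM or more in every library (factors 0.979 to 1.03). Levels in the text are deposited FPKM, and differences are on the log2(scaled FPKM + 0.5) scale, which understates the change of low genes. The 11393 genes whose scaled FPKM averaged at least 1 entered a limma 3.58.1 fit in R 4.3.3 that used every library, a mean for each of the 4 groups and a variance trend, with Benjamini-Hochberg adjustment per comparison. Assembled shares were tested as log2 ratios of assembled to reference FPKM. The fit was tested on simulated data. Tables and figures used Python 3.11.15, pandas 2.3.3 and matplotlib 3.10.9.

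Named genes were RPL10, the 10 spelled-out genes, the 3 highest and 3 lowest genes per subunit, the 3 members of smallest p on each side of 0 per comparison, the 5 of highest assembled share and any listed at 0. RPL36 and RPL27 as line-separated genes, RPL11, RPL28 and RPS24 by isoform, and RPL13 and RPS19 by form were picked out after their values were seen. Alternatives covered scaling, pseudocount, filter, forms summed, libraries in the fit, a replicate block, the variance trend and leaving out each library. The fragment level, FPKM times length, was added after the data were seen.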

Additional observations from a re-analysis of the deposited data

How the results depend on the processing

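No member was called at gene level in any of the 5 comparisons under any alternative run, nor for its assembled share, and the median member differences moved by less than 0.185, the SD between replicates on the log2 scale. That spread is larger than the medians themselves, and leaving out a library turned the sign for K700E induction, WT induction and the uninduced lines. Over all genes, calls at a limma adjusted p under 0.05 reached 28, 13, 14, 23 and 11 with no filter on low values (K700E induction, WT induction, induced lines, uninduced lines, interaction), compared with 1, 1, 3, 0 and 2 as reported. With reference transcripts alone the log2 difference reversed for RPL10 (K700E induction 1.22, uninduced lines -0.97, interaction 1.48), RPL13 (K700E induction -0.21, induced lines -0.44), RPL27A (K700E induction 0.43), RPS19 (K700E induction -1.07, interaction -0.92), RPL22 (interaction 0.0846) and RPL4 (uninduced lines 0.00799). In fragment level, chosen after seeing the data, RPL13 between the induced lines became -0.0146 and the RPL10 interaction 0.17. With assembled transcripts of any length the RPS21 interaction became 0.0253. These alternatives change which forms are summed or how a form is weighted by its length. Leaving out each library in turn, RPL13 between the induced lines ranged from -0.0771 (without K700E_induced replicate 2) to 2.19, and the other named differences kept their sign, many with a change in size given beside them. The smallest limma adjusted p of RPL10 under an alternative was 0.0504, between the uninduced lines with no filter on low values. Without the paralogs and RPL10 the large-subunit percent of K700E_induced was 56.4. Leaving out a library leaves a lone sample in its group, assumed to vary like the others.

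With the replicate number as a replicate block, 0 members were called in every comparison, and RPL10 stood at -1.29 (limma adjusted p = 0.990) for K700E induction. Differences between replicates 1 and 2 correlated between groups at -0.03 to 0.08 over all genes tested, so the numbers were not taken to pair the samples. Over the members alone the correlations ran from -0.34 to 0.56, the highest between WT_induced and WT_uninduced, so a shared factor by number for these genes was not excluded. With 2 libraries per group and no read counts, the median SE of 0.27 limits what can be seen for a single gene.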
